A study of Drosophila melanogaster and Drosophila yakuba and Drosophila virilis with 6 samples.

Results

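Imaginal discs of Drosophila yakuba were compared with the same discs of Drosophila virilis, gene by gene. D. yakuba is a close relative of D. melanogaster, and D. virilis belongs to a distant branch of the genus. The comparison used 4 of the 6 libraries of the series: the eye-antennal disc and the wing disc of D. yakuba, and the eye-antennal disc and the wing disc of D. virilis, all from wandering larvae of the third instar. Wild-type CantonS discs of D. melanogaster make up the other 2 libraries, which are given only as levels set beside the comparison. The labels name no strain for D. yakuba or D. virilis, no treatment for any library, and not how many discs or larvae were pooled. Each species and disc has 1 library, so the 2 libraries of a species differ in tissue and nothing states that they came from separate cultures. The p-values below therefore rest only on the spread of the species difference between the 2 discs, which may be partly technical. The test also draws the spread of each gene toward that of all genes. Spread between animals or cultures of a species is not measured.

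Imaginal discs are sheets of epithelium that grow inside the larva and form the adult body surface at metamorphosis. The eye-antennal disc makes the eye, the antenna and much of the head capsule, and the wing disc makes the wing and the body wall of the dorsal thorax. Tag profiling reads a short tag of each messenger RNA next to a cutting site of the enzyme NlaIII, as a rule the site nearest the poly(A) tail. A site gained or lost between species, or a gene model that does not reach the tag, can therefore change a count with no change in the amount of RNA. Tags of a gene and of its near-identical copies, and tags from either strand, were summed under a gene as deposited and cannot be told apart here.

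The libraries held 5673047 (D. yakuba eye-antennal), 2200615 (D. yakuba wing), 2065918 (D. virilis eye-antennal) and 3132492 (D. virilis wing) tags in the authors' mapping to gene models, called the gene mapping below. A D. melanogaster gene was named for 94.5% and 94.4% of the D. yakuba tags, against 86.4% and 87.2% of the D. virilis tags. Through these names 8226 genes were paired between the species, and 6548 had enough tags to be tested. Levels are scaled CPM (CPM below), that is, tags per 1000000 tags of the tested genes, after TMM scaling. Levels of D. melanogaster were scaled in a separate fit of all 6 libraries, with its own genes and factors. They are therefore not on exactly the same scale as those of D. yakuba and D. virilis. Summed disc markers were higher in the disc they mark, in both species. In D. yakuba, eye-antennal markers summed to 2961 CPM in eye-antennal discs, against 311 in wing discs. The D. virilis sums were 2267 and 190. In the eye-antennal discs of both species most of the sum came from a single gene, eya, whose values are given below. Wing disc markers summed to 116 and 526 in D. yakuba, against 63.3 and 648 in D. virilis. Pairs of values below give the eye-antennal disc before the wing disc.

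The species differed at most genes tested. At an adjusted p under 0.05, 1826 genes (27.9% of those tested) were higher in D. yakuba and 1852 (28.3%) were higher in D. virilis, in a fit with the disc as a block. The other 2870 genes did not pass. The median size of the difference was 1.40 on the log2 scale, and its median sign was near balance (0.03). Folds in the eye-antennal discs and folds in the wing discs had the same sign at 5685 genes (86.8%) and correlated across genes (Pearson r 0.874, Spearman rho 0.879; genes are not independent, and each fold of a pair rests on libraries of its own). Within a disc the median species difference was 1.42 (eye-antennal) and 1.46 (wing) on the log2 scale. The median difference between the eye-antennal and wing discs of 1 species was 0.31 in D. yakuba and 0.44 in D. virilis.

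**Figure D1:**
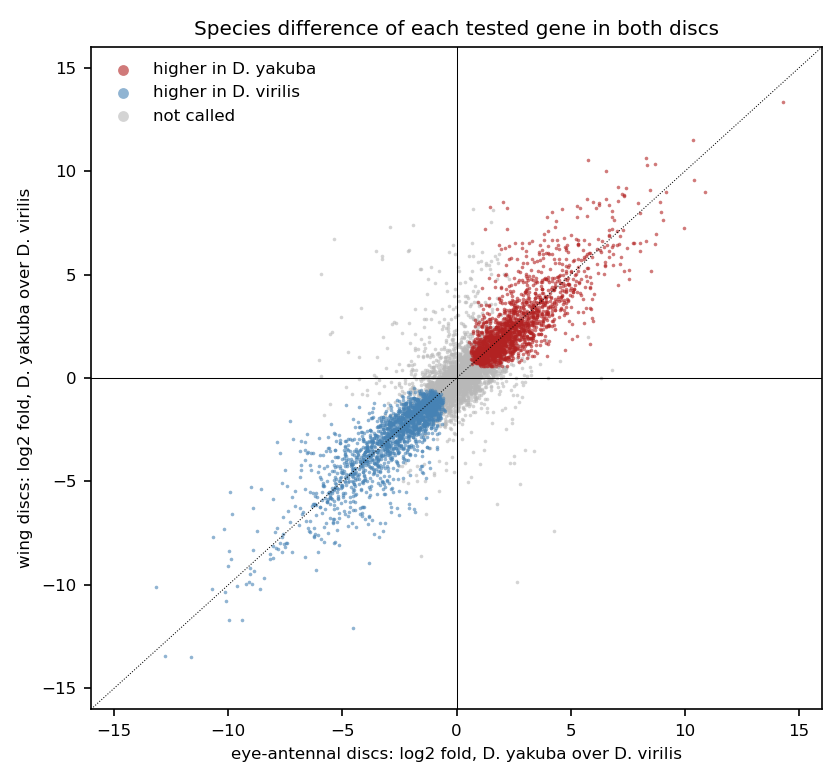
Log2 fold of D. yakuba over D. virilis for the 6548 tested genes, in eye-antennal discs (x axis) and in wing discs (y axis); red points are higher in D. yakuba, blue points higher in D. virilis and grey points not called, and the dotted line marks equal folds. Called genes lie along the diagonal, and 5685 of the genes have the same sign on both axes.

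The counts fell most when a D. yakuba library was left out. Leaving out the D. yakuba eye-antennal library gave 813 genes higher in D. yakuba and 850 higher in D. virilis, and leaving out the D. yakuba wing library gave 974 and 893. Without the D. virilis eye-antennal library the counts were 1450 and 1472, and without the D. virilis wing library 1561 and 1380. A fit of 3 libraries has no term for the disc, and the fit of all 4 libraries without that term gave 1702 and 1803. Counts within the gene lists below moved as well when a library was left out. A stricter reading asks for at least a 2-fold difference, at the near end of a 95% counting interval, in each disc as well as an adjusted p under 0.05: 1163 genes (17.8%) met it in D. yakuba and 1244 (19.0%) in D. virilis. The intervals cover counting error only. Taken disc by disc, without the test, a 2-fold bound was met in the eye-antennal libraries by 1493 genes (22.8%) higher in D. yakuba and 1573 (24.0%) higher in D. virilis, and in the wing libraries by 1477 (22.6%) and 1529 (23.4%).

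A second set of deposited files placed the same tags on the genomes of each species (droYak2 and droVir3), called the genome mapping below. It is not an independent measurement of RNA, since it uses the same tags. A called gene was counted as held when the genome mapping gave the same direction in both discs with a mean of at least 1 on the log2 scale. Of the genes higher in D. yakuba 1174 (17.9% of all tested, 64.3% of those called) were held, and of the genes higher in D. virilis 1085 (16.6% of all tested, 58.6% of those called). Under the scaling of the gene mapping, the counts held were 1444 and 925, since the genome mapping's own scaling moves all its log2 folds by -0.74. The genome mapping gave the opposite direction, under either scaling, for 191 of the genes higher in D. yakuba and 505 of the genes higher in D. virilis. It had no tag in any library for a further 43 and 68. Tested as the gene mapping was, the genome mapping called 2331 of its 6747 genes (34.5%) higher in D. yakuba and 2127 (31.5%) higher in D. virilis.

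The mappings differed more in D. virilis. The genome mapping put 79.2% of the D. yakuba eye-antennal tags and 79.2% of the D. yakuba wing tags on the gene that the gene mapping named, against 59.1% and 60.9% of the D. virilis tags. It gave no place to 8.01% and 8.73% of the D. yakuba tags, and to 29.1% and 26.7% of the D. virilis tags. A stricter set was made after the values were seen: genes with at least 80% of their gene mapping tags on the same D. melanogaster gene in the genome mapping of both species, called placed genes below. There were 2664 of them among the genes tested. Of these, 701 (26.3%) were higher in D. yakuba and 745 (28.0%) were higher in D. virilis, with a median log2 fold of -0.01. Genes not placed were called at 57.5%, and placed genes at 54.3%. Placed genes whose fold was held under both scalings numbered 420 higher in D. yakuba (6.41% of all tested) and 614 higher in D. virilis (9.38%).

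**Figure D2:**
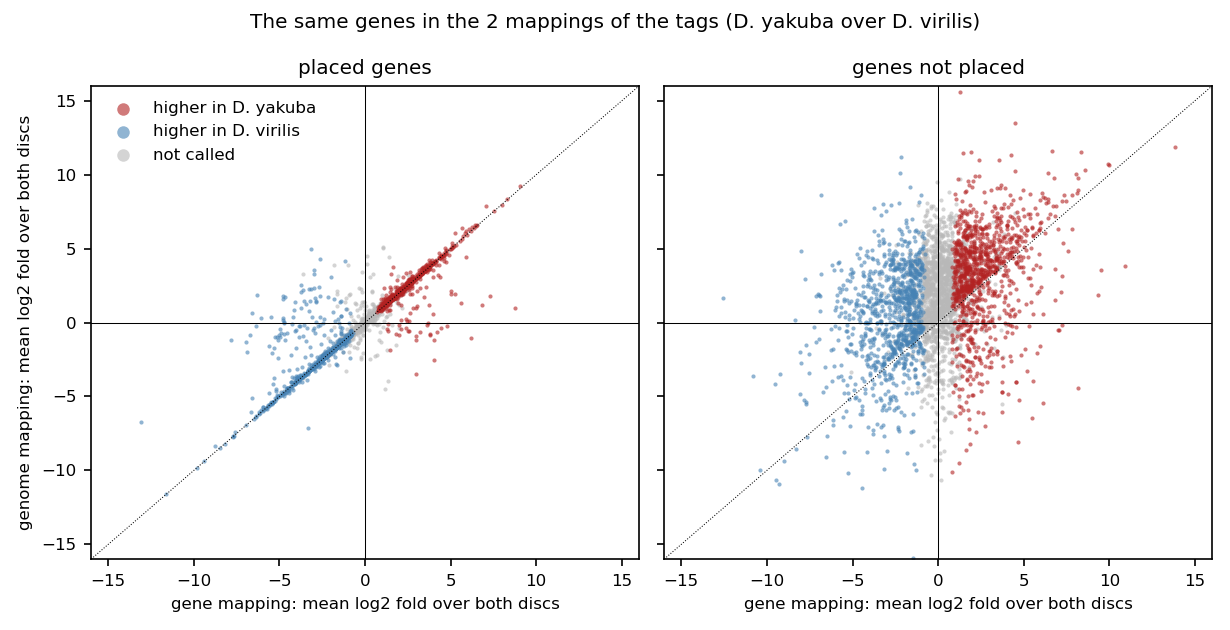
Mean log2 fold of D. yakuba over D. virilis over both discs in the gene mapping (x axis) and in the genome mapping under the gene mapping's scaling (y axis), for placed genes (left panel) and for genes not placed (right panel); colours give the call in the gene mapping. Most of the 2664 placed genes lie on the dotted line of equal folds, and the other genes scatter over all 4 quadrants. This contrast follows largely from the choice of placed genes, whose tags both mappings put on the same gene.

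Several of the largest folds came with tags that the 2 mappings assign to different genes. CG3788 had 1774 and 1678 CPM in D. yakuba, against 1.07 and 0.389 in D. virilis. Of its 11018 D. yakuba tags, the genome mapping put 10967 on CNBP, a nucleic acid binding protein. ox, a subunit of complex III of the respiratory chain, had 333 and 257 in D. yakuba, against 0.537 and 0 in D. virilis, and 1950 of its 1966 D. yakuba tags lay on mRpL18 in the genome mapping. All 2611 D. yakuba tags of CG16957 lay on RpL24, and 6489 of the 6518 D. yakuba tags of Tcs4 lay on Cdc42, a small GTPase of cell polarity. The transporter gene Mdr49 had 1622 of its 1629 D. yakuba tags on Sans. The same was seen with D. virilis on the high side. There 1785 of the 1813 tags of CG10343 lay on Glyat, and 1083 of the 1084 tags of Hez lay on CG6707. At these 7 genes a difference in the level of RNA and a difference in the gene model that took the tags cannot be told apart.

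Copies of a gene family showed the same exchange at genes often used as references. alphaTub84B, a general alpha-tubulin, had 387 and 321 CPM in D. yakuba, against 19216 and 18516 in D. virilis. Of its 83432 D. virilis tags, 83405 lay on alphaTub85E, another alpha-tubulin, in the genome mapping, which gave a log2 fold of 6.03 in the opposite direction. Gapdh1, a glycolytic enzyme, had 469 and 595 in D. yakuba, against 2416 and 2353 in D. virilis, and 10545 of its 10553 D. virilis tags lay on its copy Gapdh2. The genome mapping listed 2115 and 1066 Gapdh1 tags in D. yakuba, against 0 and 0 in D. virilis, the opposite direction. Act5C, a cytoplasmic actin, had 9634 and 9663 in D. yakuba, against 7795 and 6379 in D. virilis, and did not pass (log2 fold 0.45 ± 0.23, adjusted p = 0.151). RpL32 had 4931 and 5632 in D. yakuba, against 5466 and 6808 in D. virilis, and did not pass either (adjusted p = 0.462). Of the 6 tested members of the list of reference genes 4 passed, each higher in D. virilis, but only 1 of the 4, SdhA, was held by the genome mapping.

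Cytosolic ribosomal proteins build the ribosome together with ribosomal RNA, in close to equal numbers, and growing discs express their genes strongly. Of 86 such genes matched by symbol, 52 were listed and tested in both species, 13 were listed only in D. yakuba, 4 only in D. virilis and 17 in neither. Among the 52, 19 were higher in D. yakuba and 17 in D. virilis, against 27.9% and 28.3% of all genes tested. The 52 had a median log2 fold of 0.05. The genome mapping called 19 and 30 of 64, with a median of -0.60, and the placed members of the gene mapping had a median of -0.39. Together the matched genes took 25.0% and 26.2% of the tags with a D. melanogaster gene in D. yakuba, against 21.8% and 22.6% in D. virilis. The 32 genes with over 1000 CPM in all 4 libraries had a median log2 fold of 0.20, with 11 higher in D. yakuba and 6 in D. virilis. Single members nevertheless lay as far apart as -13.14 (RpL35A) and 9.98 (RpL7A). Without 1 library at a time, the counts ran between 13 and 21 higher in D. yakuba and between 10 and 18 higher in D. virilis.

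RpL7A, a protein of the large subunit, had 21258 and 17452 CPM in D. yakuba, against 15.6 and 22.5 in D. virilis (log2 fold 9.98 ± 0.41, adjusted p = 0.000633). It was held but not placed. RpL14 had 19814 and 19878 in D. yakuba, against 34.4 and 39.3 in D. virilis (log2 fold 9.07 ± 0.33, adjusted p = 0.000633), and was both placed and held. RpL40, a ribosomal protein made as a fusion with ubiquitin, had 3786 and 4094 in D. yakuba, against 136 and 95.6 in D. virilis, and was placed and held as well. In each of these genes both discs of D. yakuba lay far above both discs of D. virilis.

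Other members ran the opposite way by as much. RpL35A had 5 and 1 tags in D. yakuba, against 15923 and 23567 in D. virilis. The genome mapping gave it 408 and 140 tags in D. yakuba, so the size of its fold depends on the mapping, though not its direction. RpL35 had 4.87 and 4.46 CPM in D. yakuba, against 3937 and 5070 in D. virilis (log2 fold -9.85 ± 0.37, adjusted p = 0.000633), and was placed and held. RpL36A had 7.31 and 7.81 in D. yakuba, against 12261 and 9405 in D. virilis, but 47031 of its 47035 D. virilis tags had no place in the genome mapping. In D. melanogaster RpL35 stood at 9.76 and 4.91, and RpL14 at 11464 in eye-antennal discs and 355 in wing discs, so the discs of D. melanogaster did not hold RpL14 at 1 level.

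**Figure D3:**
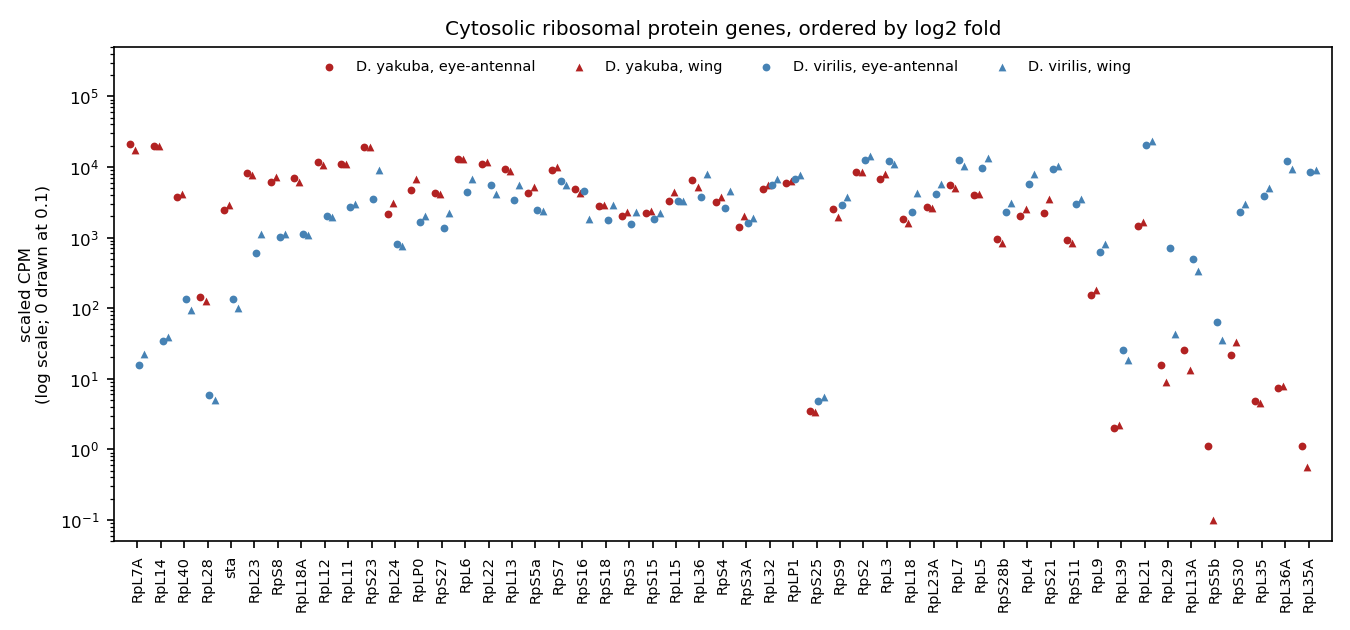
Scaled CPM (log scale) of 51 cytosolic ribosomal protein genes, ordered by log2 fold, in D. yakuba (red) and D. virilis (blue) eye-antennal discs (circles) and wing discs (triangles). The 2 discs of a species lie close together at most genes, 32 genes exceed 1000 in all 4 libraries, and the genes at either end are far lower in 1 species.

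Translation factors load messenger RNA onto ribosomes and drive elongation and release. Of 35 tested, 13 were higher in D. yakuba and 8 in D. virilis, against 27.9% and 28.3% of all genes tested. The median log2 fold of the 35 was 0.37, and 7 and 6 of 21 placed members were called. In the genome mapping the counts were 12 and 14 of 38, with a median of -0.08. With 1 library left out, between 9 and 14 were higher in D. yakuba and between 4 and 7 in D. virilis. eEF2, which moves the ribosome along the message, had 19708 and 19344 in D. yakuba, against 1026 and 1015 in D. virilis, with most of its D. virilis tags (4186 of 4523) without a place in the genome mapping. eEF1beta, the exchange factor of elongation factor 1, had 5837 and 7184 in D. yakuba, against 213 and 403 in D. virilis (log2 fold 4.46 ± 0.30, adjusted p = 0.00066), and was placed and held. The helicase eIF4A did not pass, with 10186 and 7460 in D. yakuba, against 6537 and 8115 in D. virilis (log2 fold 0.26 ± 0.28, adjusted p = 0.463). The cap-binding factor eIF4E1 had 534 and 579 in D. yakuba, against 11.8 and 10.9 in D. virilis. The genome mapping listed 430 and 534 eIF4E1 tags in D. virilis, where its difference did not pass (log2 fold 0.60, adjusted p = 0.105).

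Genes of the mitochondrial respiratory chain and ATP synthase make ATP from oxygen and reduced carriers. Of 57 tested, 13 were higher in D. yakuba and 23 in D. virilis, with a median log2 fold of -0.51. Over all genes tested the shares were 27.9% and 28.3%. Among the 29 placed members the counts were 4 and 13, with a median of -0.66. ATPsynG, a subunit of the membrane part, had 0 and 1 tags in D. yakuba, against 1913 and 2363 in D. virilis, and was placed and held. Its placement in D. yakuba rests on that 1 tag, and both D. melanogaster libraries had 0. ATPsynC, the ring subunit through which protons pass, had 2153 and 2137 CPM in D. yakuba, against 18.3 and 24.9 in D. virilis. It was held but not placed, with 2.04% of its D. virilis tags on ATPsynC in the genome mapping. ND-B14, a complex I subunit, was placed and held with 756 and 633 in D. yakuba, against 6.44 and 7.77 in D. virilis (log2 fold 6.58 ± 0.36, adjusted p = 0.000633). ATPsynbeta, the catalytic subunit, had 1410 and 1595 in D. yakuba, against 1605 and 1546 in D. virilis, and did not pass (log2 fold -0.07 ± 0.24). COX4 had 3 and 0 tags in D. yakuba, against 1453 and 2380 in D. virilis, but 3809 of the 3833 D. virilis tags had no place in the genome mapping. Without 1 library at a time, the counts for the whole list ran between 8 and 12 higher in D. yakuba and between 13 and 23 higher in D. virilis.

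In the tricarboxylic acid cycle 1 of 13 tested members was higher in D. yakuba and 5 in D. virilis, against 4 and 4 of 14 in the genome mapping. Over all genes tested the shares in the gene mapping were 27.9% and 28.3%. SdhA, the catalytic subunit of succinate dehydrogenase, had 59.4 and 89.3 in D. yakuba, against 434 and 519 in D. virilis (log2 fold -2.71 ± 0.28, adjusted p = 0.00132). In glycolysis 2 of 12 were higher in D. yakuba and 5 in D. virilis, with a median log2 fold of -0.53 (2 and 2 of 8 placed members). The genome mapping gave 1 and 6 of 12, with a median of -0.87; without either D. yakuba library none was higher in D. yakuba, and 4 or 5 were higher in D. virilis. Tpi, triose phosphate isomerase, had 59.1 and 83.1 in D. yakuba, against 608 and 1898 in D. virilis (log2 fold -3.93 ± 0.39, adjusted p = 0.00115; 0.0557 without the D. yakuba eye-antennal library). Pgk, phosphoglycerate kinase, had 165 and 231 in D. yakuba, against 793 and 1184 in D. virilis (log2 fold -2.31 ± 0.26, adjusted p = 0.00153). Both genes were placed and held. Mitochondrial ribosomal proteins had 12 higher in D. yakuba and 18 in D. virilis of 57 tested (median -0.30), and between 7 and 12 and between 12 and 19 with 1 library left out.

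The proteasome, which degrades tagged proteins, had 6 of 27 tested subunits higher in D. yakuba and 8 in D. virilis, with a median log2 fold of 0.03. Rpn13 and Rpn1, subunits of the regulatory cap, were higher in D. yakuba, and Prosbeta2, a subunit of the core, was higher in D. virilis. Rpn13 had 2902 and 2274 in D. yakuba, against 213 and 188 in D. virilis. Rpn1 had 1479 and 1140 in D. yakuba, against 112 and 89.4 in D. virilis. Prosbeta2 had 45.8 and 37.4 in D. yakuba, against 2246 and 1785 in D. virilis, but the genome mapping reversed its direction (log2 fold 1.56). The shares of the complex called in either direction, 6 and 8 of 27, were near those of all genes tested. With 1 library left out, between 4 and 7 subunits were higher in D. yakuba and between 3 and 8 in D. virilis. Of 24 splicing factors 4 were higher in D. yakuba and 4 in D. virilis, against 11 and 6 of 29 in the genome mapping.

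DNA replication genes copy the genome in dividing disc cells. Of 21 tested, 3 were higher in D. yakuba and 10 in D. virilis, against 27.9% and 28.3% of all genes tested. The median log2 fold of the 21 was -0.58. Among 12 placed members the counts were 2 and 6, with a median of -0.88. The ribonucleotide reductase subunits, which make the building blocks of DNA, were both placed and held. RnrL had 14.2 and 30.7 in D. yakuba, against 159 and 271 in D. virilis (log2 fold -3.31 ± 0.30, adjusted p = 0.000931). RnrS had 124 and 166 in D. yakuba, against 856 and 1021 in D. virilis (log2 fold -2.70 ± 0.26, adjusted p = 0.00109). In both genes each D. virilis library lay above each D. yakuba library. dpa, the Mcm4 subunit of the replicative helicase, had 140 and 162 in D. yakuba, against 111 and 185 in D. virilis, and did not pass (log2 fold 0.07 ± 0.29). geminin, an inhibitor of origin licensing, had 2 and 0 tags in D. yakuba, against 566 and 660 in D. virilis, where the genome mapping put both D. yakuba tags on another gene. For RfC3 and Orc5, higher in D. virilis in the gene mapping, the genome mapping reversed the direction to log2 folds of 3.40 and 2.93. In the genome mapping the counts for the list were 7 and 10 of 22. Without 1 library at a time, between 0 and 3 genes were higher in D. yakuba, with 0 without the D. yakuba wing library, and between 6 and 8 in D. virilis.

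Of 20 cell cycle regulators 6 were higher in D. yakuba and 6 in D. virilis, against 27.9% and 28.3% of all genes tested. In the genome mapping 11 and 8 of 24 passed, and with 1 library left out 4 were higher in D. yakuba and between 2 and 6 in D. virilis. CycD and Cdk4, the cyclin and kinase that form a growth-promoting complex, were both higher in D. yakuba. CycD had 239 and 233 in D. yakuba, against 22.0 and 22.2 in D. virilis (log2 fold 3.41 ± 0.29, adjusted p = 0.000848). It was held but not placed, with 11.2% of its D. virilis tags on CycD in the genome mapping. Cdk4 had 254 and 201 in D. yakuba, against 51.0 and 52.5 in D. virilis (log2 fold 2.12 ± 0.29, adjusted p = 0.00266), but in the genome mapping its difference did not pass (log2 fold 0.48, adjusted p = 0.238). thr, the separase partner needed to part sister chromatids, was placed and held on the D. virilis side, with 0.886 and 0.558 in D. yakuba, against 34.9 and 26.4 in D. virilis. Its placement in D. yakuba rests on few tags.

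**Figure D4:**
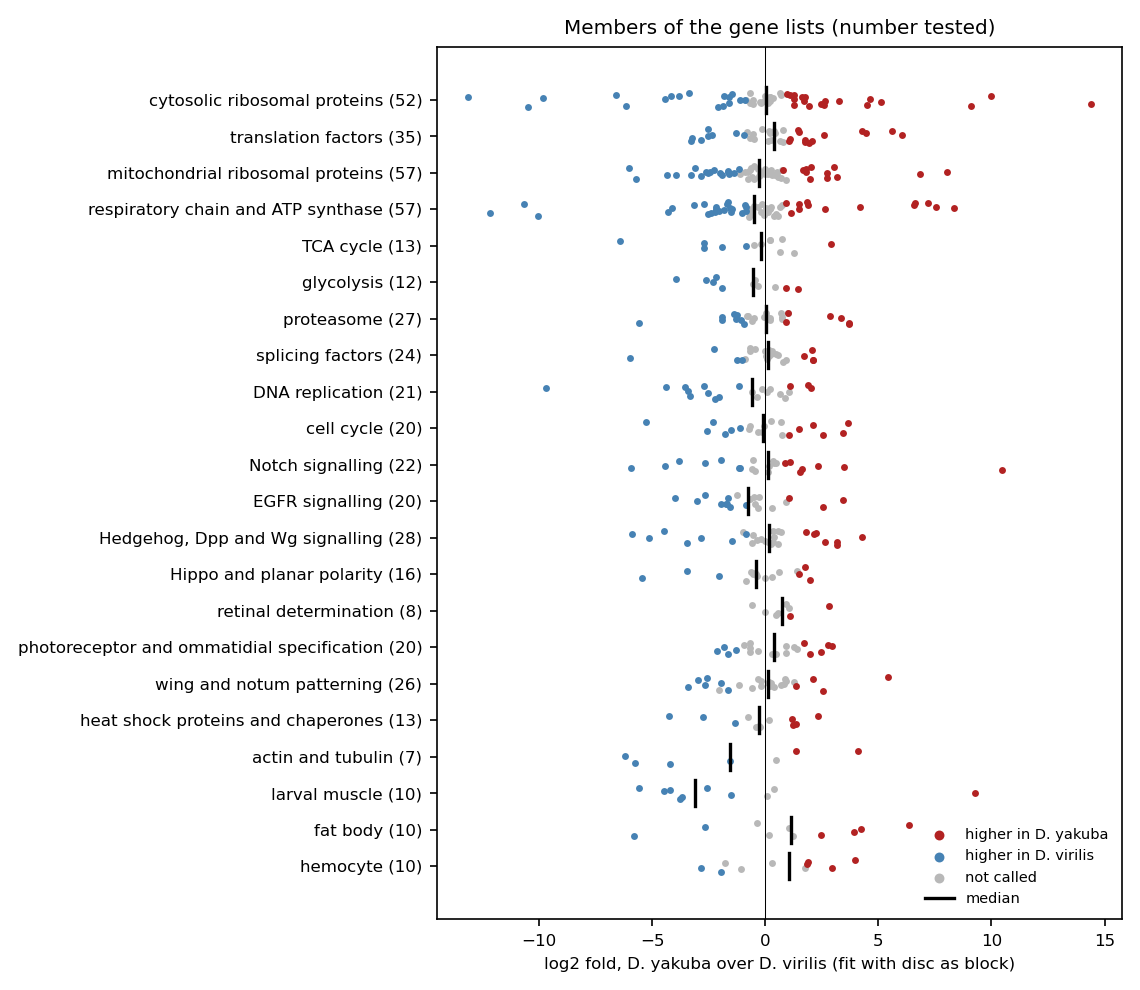
Log2 fold of D. yakuba over D. virilis for the tested members of 22 gene lists (number tested in brackets), with members higher in D. yakuba in red, higher in D. virilis in blue and not called in grey; black bars are list medians. Nearly every list holds members on both sides of 0, and the larval muscle list has the lowest median (-3.13).

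Signalling pathways set the pattern of the discs. The pathway counts below stand beside 27.9% of all genes tested higher in D. yakuba and 28.3% higher in D. virilis. In the Notch pathway, by which neighbouring cells choose different fates, 7 of 22 tested members were higher in D. yakuba and 7 in D. virilis (median log2 fold 0.14), and between 3 and 4 and between 3 and 5 with 1 library left out. E(spl)malpha-BFM, a target of Notch in the Bearded family, had 2305 and 536 tags in D. yakuba, against 0 and 1 in D. virilis. E(spl)m2-BFM, of the same family, had 633 and 317 CPM in D. yakuba, against 60.7 and 26.8 in D. virilis (log2 fold 3.47 ± 0.29, adjusted p = 0.0008). Both genes were held but neither was placed. fng, the glycosyltransferase that tunes Notch to its ligands, had 4.21 and 6.14 in D. yakuba, against 259 and 380 in D. virilis, but the genome mapping reversed it (log2 fold 1.15, adjusted p = 0.0154). The ligand Ser was higher in D. virilis and placed and held, with 24.6 and 51.3 in D. yakuba, against 126 and 392 in D. virilis (log2 fold -2.65 ± 0.31, adjusted p = 0.00179). In fits of 3 libraries, which have no disc term, Ser lost its call without the D. yakuba eye-antennal, the D. yakuba wing or the D. virilis wing library. Its log2 folds there were -2.32, -3.37 and -1.67.

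In the EGFR pathway, which drives growth and recruits photoreceptors, 3 of 20 tested members were higher in D. yakuba and 9 in D. virilis. Over all genes tested the shares were 27.9% and 28.3%. The median log2 fold of the pathway was -0.76. Of its 7 placed members 3 passed, each higher in D. virilis. Among 19 members tested in the genome mapping the counts were 6 and 11, and with 1 library left out between 2 and 3 were higher in D. yakuba and between 5 and 7 in D. virilis. The kinases Dsor1 (MEK) and rl (ERK) were on the D. virilis side. Dsor1 had 16.2 and 10.6 in D. yakuba, against 79.4 and 90.6 in D. virilis (log2 fold -2.65 ± 0.34, adjusted p = 0.00234), and was placed and held. rl had 7.75 and 11.2 in D. yakuba, against 76.8 and 71.9 in D. virilis (log2 fold -3.01 ± 0.35, adjusted p = 0.00169). Ras85D, the GTPase above them, was on the D. yakuba side, with 799 and 643 in D. yakuba, against 92.9 and 160 in D. virilis (log2 fold 2.55 ± 0.37, adjusted p = 0.00321). It was not placed. The receptor Egfr was called higher in D. yakuba (log2 fold 1.05 ± 0.30, adjusted p = 0.0307), but 1365 of its 1559 D. yakuba tags lay on twz in the genome mapping, which reversed the direction (-2.56). Its adjusted p was 0.149 without the D. yakuba eye-antennal library, 0.123 without the D. yakuba wing library and 0.0711 without the D. virilis eye-antennal library.

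In the Hedgehog, Dpp and Wg pathways, which organise the axes of the discs, 7 of 28 tested members were higher in D. yakuba and 7 in D. virilis (median log2 fold 0.18), against 15 and 7 of 33 in the genome mapping. With 1 library left out, between 4 and 7 were higher in D. yakuba and between 5 and 6 in D. virilis. Wnt2, a secreted Wnt ligand, had 39.2 and 49.1 in D. yakuba, against 1.07 and 3.50 in D. virilis (log2 fold 4.26 ± 0.51, adjusted p = 0.00192). Apc, a part of the complex that degrades beta-catenin, had 10.2 and 5.02 in D. yakuba, against 215 and 124 in D. virilis (log2 fold -4.48 ± 0.32, adjusted p = 0.00067). Both were held and placed. ci, the transcription factor of the Hedgehog pathway, had 334 and 249 in D. yakuba, against 187 and 168 in D. virilis, and did not pass (log2 fold 0.70 ± 0.27, adjusted p = 0.0686). gbb, a ligand of the BMP family, had 322 and 285 in D. yakuba, against 194 and 222 in D. virilis, and did not pass (adjusted p = 0.137).

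Retinal determination genes specify the eye field within the eye-antennal disc. Of 8 tested 2 passed (25%, against 56.2% of all genes tested), Optix and dac, both higher in D. yakuba (median log2 fold of the 8, 0.72). eya, a phosphatase and co-activator of the eye field, had 2167 and 165 in D. yakuba, against 1547 and 52.1 in D. virilis, and missed the threshold (log2 fold 1.05 ± 0.36, adjusted p = 0.0506), which it passed under DESeq2 (0.0189). In the genome mapping 3000 of its 3016 D. virilis tags had no place. so, the homeodomain partner of eya, had 114 and 25.7 in D. yakuba, against 101 and 12.4 in D. virilis, and did not pass (adjusted p = 0.208). In each species eya and so were several-fold higher in the eye-antennal library than in the wing library. Optix, a related homeodomain factor, had 137 and 35.7 in D. yakuba, against 24.7 and 3.50 in D. virilis (log2 fold 2.80 ± 0.36, adjusted p = 0.00225). It lost its call with any 1 library left out, in fits with no disc term, at log2 folds between 1.38 and 4.63. dac passed narrowly (adjusted p = 0.0497). Its call was lost with total-tag scaling (0.0858), under DESeq2 (0.11), with at least 50 tags (0.0502), with all 6 libraries (0.0685), without the disc block (0.441) and with the position of most tags (0.057). The genome mapping gave dac a log2 fold of 0.36 (adjusted p = 0.432). dac also lost its call with any 1 library left out, in fits with no disc term, at log2 folds between 0.04 and 2.54.

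Of 26 tested genes of wing and notum patterning, 4 were higher in D. yakuba and 6 in D. virilis, against 27.9% and 28.3% of all genes tested. The median log2 fold of the 26 was 0.13, and 3 and 5 of 15 placed members were called. Under the genome mapping the counts were 10 and 8 of 28, and with 1 library left out between 1 and 4 were higher in D. yakuba and between 0 and 3 in D. virilis. Sox15, a factor of the wing hinge, had 0 and 24.0 in D. yakuba, against 2.68 and 232 in D. virilis. Dr, a homeobox factor of the dorsal wing, had 8.86 and 185 in D. yakuba, against 1.61 and 45.9 in D. virilis. Both genes were concentrated in the wing library of each species, Sox15 at a higher level in D. virilis (log2 fold -3.42 ± 0.50, adjusted p = 0.00331) and Dr at a higher level in D. yakuba (log2 fold 2.11 ± 0.33, adjusted p = 0.00413). In fits of 3 libraries, which have no disc term, neither passed, with log2 folds of 2.20 for Sox15 without the D. virilis wing library and -1.41 for Dr without the D. yakuba wing library. ara, a notum factor of the Iroquois complex, had 5.09 and 16.7 in D. yakuba, against 27.9 and 176 in D. virilis (log2 fold -2.96 ± 0.37, adjusted p = 0.00211). In fits of 3 libraries, ara lost its call without the D. yakuba eye-antennal, the D. yakuba wing or the D. virilis wing library. Its log2 folds there were -2.59, -4.29 and -1.31. mirr, of the same complex, had 116 and 121 in D. yakuba, against 2.68 and 2.72 in D. virilis in the gene mapping, while the genome mapping listed 144 and 620 mirr tags in D. virilis and turned the log2 fold to -0.96 (adjusted p = 0.0684).

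Among the genes placed and held under both scalings, the 14 with the largest conservative fold in each direction were drawn; they were chosen after their values were seen. The conservative fold is the near end of the counting interval in whichever disc gave the smaller one. His2Av, a histone H2A variant, had 346 and 445 in D. yakuba, against 1.07 and 1.55 in D. virilis (log2 fold 8.18 ± 0.41, adjusted p = 0.000633). Fbp1, a receptor by which the fat body takes up storage proteins, had 1139 and 11138 in D. yakuba, against 9.66 and 174 in D. virilis (log2 fold 6.36 ± 0.37, adjusted p = 0.000633). Its call was lost without the D. yakuba eye-antennal, the D. yakuba wing or the D. virilis eye-antennal library, in fits with no disc term. The log2 folds of Fbp1 there were 6.94, 3.65 and 5.14. Ance, a secreted peptidase related to angiotensin converting enzyme, had 1882 and 799 in D. yakuba, against 9.66 and 28.8 in D. virilis (log2 fold 6.06 ± 0.77, adjusted p = 0.00223). In D. melanogaster, His2Av stood at 568 and 461, Fbp1 at 1050 and 7156 and Ance at 720 and 426 in eye-antennal and wing discs. CSN8, a subunit of the COP9 signalosome, had 248 and 232 in D. yakuba, against 2.15 and 3.89 in D. virilis, and no tag in either D. melanogaster library.

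On the D. virilis side of the same set, betaTub97EF, a beta-tubulin, had 2.66 and 1.67 in D. yakuba, against 163 and 181 in D. virilis (log2 fold -6.19 ± 0.39, adjusted p = 0.00064). Tbc1d15-17, of a family of GTPase activators for Rab proteins, had 0.886 and 0.558 in D. yakuba, against 197 and 173 in D. virilis (log2 fold -7.85 ± 0.42, adjusted p = 0.000633). U3-55K, a protein of the small nucleolar particle that processes ribosomal RNA, had 1.33 and 1.12 in D. yakuba, against 101 and 138 in D. virilis (log2 fold -6.45 ± 0.40, adjusted p = 0.000633). The placement of betaTub97EF, Tbc1d15-17 and U3-55K in D. yakuba rests on few tags. In D. melanogaster, betaTub97EF stood at 44.7 and 21.5, Tbc1d15-17 at 23.1 and 22.1, and U3-55K at 2.57 and 0. Muc55B, a mucin-like gene, had 0 and 3 tags in D. yakuba, against 79 and 5802 in D. virilis. It lost its call without either D. yakuba library, in fits with no disc term (log2 folds -9.35 and -14.74). All but the last of these genes were at nearly the same level in both discs of a species.

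**Figure D5:**
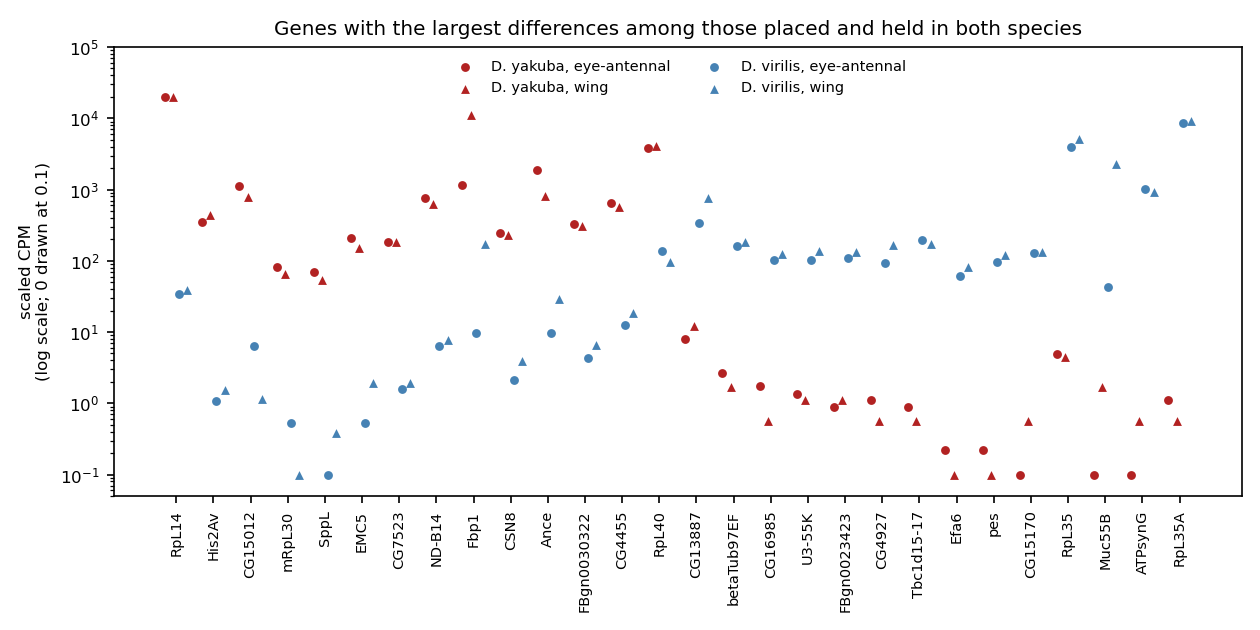
Scaled CPM (log scale) of the 28 genes with the largest conservative fold among those placed and held under both scalings, in D. yakuba (red) and D. virilis (blue) eye-antennal discs (circles) and wing discs (triangles). The red and blue points of a gene do not overlap, and Fbp1 and Muc55B have the widest gap between the discs of a species.

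Markers of other larval tissues were present in the disc libraries, and some of them differed between the species. In bulk tissue, fewer cells of a type and less RNA per cell cannot be told apart. Of 10 larval muscle genes tested, 1 was higher in D. yakuba and 7 in D. virilis, against 27.9% and 28.3% of all genes tested. The median log2 fold of the 10 was -3.13 (1 and 4 of 6 placed members called). Without the D. yakuba eye-antennal library 3 of them were higher in D. virilis, and without the D. yakuba wing library 1. The genome mapping gave 0 higher in D. yakuba and 10 in D. virilis of 14, with a median of -3.61. The summed muscle markers stood at 533 and 458 in D. yakuba, against 1129 and 3118 in D. virilis. Mlc1, a myosin light chain, had 32.8 and 12.8 in D. yakuba, against 373 and 643 in D. virilis (log2 fold -4.47 ± 0.59, adjusted p = 0.00252). Tm1, a tropomyosin, ran the other way, with 285 and 321 in D. yakuba, against 0.537 and 0.389 in D. virilis. In the genome mapping, which listed 296 and 717 Tm1 tags in D. virilis, its difference did not pass (log2 fold 0.22, adjusted p = 0.543).

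The summed level of fat body markers was highest in the wing library of each species, at 3103 and 28809 in D. yakuba, against 945 and 11296 in D. virilis. Lsp1gamma, Lsp2, Fbp1 and Fbp2 made up most of the wing sums. Not every member was higher in the wing libraries, since Hexo2 and Lip4 were higher in the eye-antennal library of D. yakuba. Of 10 tested 4 were higher in D. yakuba and 2 in D. virilis (median log2 fold 1.14), against 27.9% and 28.3% of all genes tested. The genome mapping turned the median to -0.69, with 3 and 5 of 10. Without the D. yakuba eye-antennal library the counts were 1 and 1, without the D. yakuba wing library 2 and 1, without the D. virilis eye-antennal library 1 and 2, and without the D. virilis wing library 3 and 2. The storage protein gene Lsp1gamma had 1219 and 12972 in D. yakuba, against 78.4 and 6291 in D. virilis (log2 fold 2.46 ± 0.75, adjusted p = 0.0361). In the genome mapping 28252 of its 28753 D. yakuba tags had no place, and the direction was reversed (-4.30). Lsp1gamma lost its call in every fit of 3 libraries, which have no disc term. Its log2 fold was -1.37 without the D. yakuba wing library. Lsp2, another storage protein gene, had 293 and 3124 in D. yakuba, against 65.5 and 2469 in D. virilis, and did not pass (adjusted p = 0.0762). Tsf1, a transferrin that carries iron in the blood, was higher in D. virilis and placed and held, with 60.2 and 138 in D. yakuba, against 595 and 563 in D. virilis (log2 fold -2.67 ± 0.40, adjusted p = 0.00372).

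Blood cell markers summed to 541 and 252 in D. yakuba, against 217 and 367 in D. virilis, with 4 of 10 higher in D. yakuba and 2 in D. virilis, and between 0 and 3 and between 0 and 2 with 1 library left out. Midgut markers summed to 22.8 and 8.93 in D. yakuba, against 2.68 and 1642 in D. virilis, where the D. virilis wing library stood far above the other 3. Ring gland markers summed to 625 and 55.2 in D. yakuba, against 229 and 112 in D. virilis. Markers of brain and neurons summed to 686 and 201 in D. yakuba, against 570 and 150 in D. virilis. The brain and neuron list shares elav with the eye-antennal markers, and Appl gave 361 of the 686 CPM in D. yakuba eye-antennal discs. That sum therefore does not mark brain tissue alone. The blood cell list likewise shares lz with the eye-antennal markers. The sums for midgut, ring gland, and brain and neurons rest on few tested genes, of which 0 of 3, 1 of 3 and 2 of 8 passed. Of all genes tested 56.2% passed. No salivary gland marker was paired. The part of these other tissues in the species differences of disc genes was not tested.

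Heat shock proteins help other proteins to fold. Of 13 genes tested, 4 were higher in D. yakuba and 3 in D. virilis, where the shares over all genes tested were 27.9% and 28.3%. Of 12 tested in the genome mapping, 6 and 3 passed, and with 1 library left out between 1 and 3 were higher in D. yakuba and between 2 and 4 in D. virilis. Hsp83, the fly HSP90, was placed and held on the D. virilis side, with 3041 and 3242 in D. yakuba, against 8220 and 7589 in D. virilis (log2 fold -1.33 ± 0.23, adjusted p = 0.00614; 0.0626 without the D. yakuba eye-antennal library). Hsp23, a small heat shock protein, had 824 and 1397 in D. yakuba, against 6939 and 7505 in D. virilis. Of its 32235 D. virilis tags 32012 had no place in the genome mapping, which reversed the log2 fold to 3.48 (adjusted p = 0.000261). Among pigment and melanin genes 1 of 11 was higher in D. yakuba and 4 in D. virilis, and between 0 and 2 and between 2 and 3 with 1 library left out. yellow-b, a member of the family of the body colour gene yellow, was placed and held with 13.1 and 16.2 in D. yakuba, against 96.6 and 155 in D. virilis (log2 fold -3.06 ± 0.30, adjusted p = 0.00109). Cytochrome P450 genes, which oxidise hormones and foreign compounds, had 3 of 17 higher in D. yakuba and 7 in D. virilis, and between 1 and 2 and between 1 and 4 with 1 library left out.

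Over the 31 lists with at least 10 tested members, between 27.3% and 80% of the members were called in either direction, against 56.2% of all genes tested. Genes were also grouped by the arm that carries them in D. melanogaster, which need not be their place in D. yakuba or D. virilis. On arms 2L, 2R, 3L, 3R and X, between 25.6% and 29.1% of the genes were higher in D. yakuba and between 27.0% and 29.3% in D. virilis. Of the 59 tested genes of chromosome 4, 22 (37.3%) were higher in D. yakuba and 7 (11.9%) in D. virilis, with a median log2 fold of 0.62. Of its 16 placed genes 3 were higher in D. yakuba and 1 in D. virilis.

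Genes with no partner in the other species lie outside these counts. In D. yakuba 1232 such genes held 753888 tags (10.1% of those with a D. melanogaster gene), and in D. virilis 2091 such genes held 227412 tags (5.03%). RpL10 led in D. yakuba with 75597 and 31086 tags, and the genome mapping listed 31543 and 51080 RpL10 tags in D. virilis. Rack1, a scaffold protein of the ribosome, had 31380 and 13226 tags in D. yakuba, and the genome mapping listed 1703 and 724 in D. virilis. RpL34b, with 50457 and 21191 tags in D. yakuba, had none in D. virilis in either mapping. In D. virilis RpS20 led with 14610 and 20615 tags, and the genome mapping listed 7872 and 3210 RpS20 tags in D. yakuba. A gene absent from the gene mapping of a species was thus not always absent from its genome mapping.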

How the data were processed

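Per the labels, libraries were made by Illumina tag profiling with NlaIII from total RNA, and per the submitters' processing notes tags were mapped with Bowtie 0.12.1. Mismatches, multiple matches and the D. melanogaster build are not given in the sources used for this work. The deposited values are raw tag counts per position, with the gene and its D. melanogaster match named by the authors. Counts were summed over all positions of a D. melanogaster gene. The species were compared with edgeR 4.0.16 (R 4.3.3): TMM scaling, filterByExpr with a minimum count of 10, a quasi-likelihood test with disc as block, 1 residual degree of freedom, Benjamini-Hochberg adjustment over the 6548 genes and a threshold of 0.05. The fit added 4.46 prior degrees of freedom estimated over all genes, so most of the variance used for a gene was borrowed from the other genes. The script was tested on simulated data. Errors are standard errors of the log2 fold.

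Counts are whole tags, and folds within a disc have exact 95% Clopper-Pearson intervals, which cover counting error only. Log2 folds within a disc add 0.5 tags to each count, and the intervals use the counts as they are. For a least value of a fold against 0 tags, the 0 was set at 3 tags. That is 0.664, 1.67, 1.61 and 1.17 scaled CPM in D. yakuba eye-antennal, D. yakuba wing, D. virilis eye-antennal and D. virilis wing. A held gene also needed 10 genome mapping tags over the 4 libraries, a minimum added after the data were seen, as were both scalings and the placed genes.

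Members and gene lists were chosen with earlier results of these data known, and adjusted p-values are over all genes tested. Named genes are the 14 with the largest conservative fold in each direction among genes held, 6 in each direction among genes not held, up to 4 with the most tags and 4 with the largest fold in each list, and 6 without a partner in each species, of which those above are a part. Symbols were found for 6042 of the tested genes (92.3%), with arms from the BDGP6.54 annotation matched by gene ID. Sequences were not used here. 1 gene is not reported here. Alternatives were total-tag scaling, DESeq2 1.42.0, other filters, the genome mapping, all 6 libraries, no block, the position with the most tags, 1-to-1 pairs, unpaired genes as 0, and each library left out.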

Additional observations from a re-analysis of the deposited data

Results flagged for a closer look

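Of the genes tested, 24 were at least 2-fold higher in one species in the eye-antennal libraries and at least 2-fold higher in the other species in the wing libraries. In 8 of them D. yakuba was higher in the eye-antennal discs, and in 16 D. yakuba was higher in the wing discs. Each rests on 1 library per species and disc, and the difference between the discs was not tested. CG12911 had 95 and 83 tags in D. yakuba, against 725 and 11 in D. virilis, with log2 folds of -4.20 in eye-antennal discs and 3.38 in wing discs. FBgn0033857 had 1 and 222 tags in D. yakuba, against 20 and 41 in D. virilis, with log2 folds of -5.05 and 2.94. Nplp1, a neuropeptide precursor, had 10 and 20 tags in D. yakuba, against 41 and 0 in D. virilis, with log2 folds of -3.26 and 5.88. nkt had 9 and 18 tags in D. yakuba, against 37 and 0 in D. virilis, with log2 folds of -3.26 and 5.73. These log2 folds add 0.5 tags to each count. The wing folds of Nplp1 and nkt, taken against 0 tags, are largely set by that addition.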

How the results depend on the processing

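The counts of genes higher in D. yakuba and higher in D. virilis (1826 and 1852) stayed within 1.5 times under every alternative that kept the 4 libraries: 1685 and 2028 with total-tag scaling, 1565 and 1646 with DESeq2, 2331 and 2127 in the genome mapping, 1702 and 1803 with no disc block, 2471 and 2395 with unpaired genes as 0. With 1 library left out, they ran between 813 and 1561 and between 850 and 1472. Total-tag scaling moves all log2 folds by -0.14. The genome mapping also called 1062 of the 1826 genes (58.2%; 131 the other way, 242 not tested there) and 1009 of the 1852 (54.5%; 271 the other way, 318 not tested there). The genes held (1174 and 1085) came to 420 and 614 among placed genes under both scalings, where fewer genes could be counted.

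The genome mapping reversed the log2 folds of Egfr (-2.56), Hsp23 (3.48), Lsp1gamma (-4.30), Lsp2 (-3.90), Orc5 (2.93), Prosbeta2 (1.56), RfC3 (3.40), Tcs4 (-1.20), alphaTub84B (6.03), fng (1.15) and mirr (-0.96); the cause was not tested beyond the placements given above. Gapdh1 could not be tested there, and its tags ran the opposite way. The wing libraries alone reversed eIF4A (-0.12), which was not called. With 1 library left out, the log2 fold ran from -1.41 to 5.97 for Dr, from -1.37 to 6.62 for Lsp1gamma and from -11.45 to 2.20 for Sox15. Those fits have no disc term and these genes are concentrated in the wing libraries. The ranges therefore mix the disc difference with the species difference and do not measure how stable the species difference is. The disc pairs the species and is the block of the fit. No paired analysis was possible because the groups share only replicate number 1, if the pairing is to come from replicate numbers in place of the disc. Arms with 1 library were assumed to vary like the other species. Depth limits low genes: 3 tags are 0.664 to 1.67 scaled CPM.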

Other observations

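Of the genes higher in D. yakuba, 106 had at most 3 tags in each D. virilis library, and of the genes higher in D. virilis, 188 had at most 3 tags in each D. yakuba library. The position with the most tags held a median of 87.2% (eye-antennal) and 87.5% (wing) of a gene's tags in D. yakuba, against 76.5% and 82.6% in D. virilis. Odorant-binding proteins had 5 of 11 tested members higher in D. yakuba and 3 in D. virilis, cuticle proteins 4 of 18 and 7, and glutathione S-transferases 5 of 13 and 4. Over all genes tested the shares were 27.9% and 28.3%. GstD9, a transferase of the delta class, had 1204 and 584 tags in D. yakuba, against 0 and 5 in D. virilis, was held but not placed, and had 1.03 and 6.13 scaled CPM in D. melanogaster. Of 6 dosage compensation genes tested 2 passed (33.3%, against 56.2% of all genes tested called in either direction), both higher in D. yakuba. msl-3 had 80.8 and 73.1 scaled CPM in D. yakuba, against 2.68 and 3.50 in D. virilis. Clamp, a zinc finger protein that binds the male X, had 135 and 129 in D. yakuba, against 13.96 and 10.1 in D. virilis (log2 fold 3.47 ± 0.31, adjusted p = 0.000908). Only Clamp was held by the genome mapping, and neither gene was placed.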
